A study of Mus musculus with 4 samples.

Results

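The ligands and receptors of the epidermal growth factor (EGF) pathway were followed in cultures of fat cells that had de-differentiated (DFAT cells) and in cultured adipose stem and progenitor cells (ASPCs). The 7 genes were taken by symbol from the 32285 genes counted: the ligands *Areg*, *Ereg*, *Hbegf*, *Tgfa* and *Btc*, and the receptors *Egfr* and *Erbb2*. They were chosen by name, with their levels in these 4 libraries known from earlier results, so those levels and the ratios between libraries are a description and are not tested.

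Single-cell RNA sequencing was done on 4 libraries, 1 per condition, all of cultured primary cells of male C57BL/6J mice on chow. The iWAT_DFAT and eWAT_DFAT libraries came from ceiling cultures of adipocytes of inguinal (iWAT) and epididymal (eWAT) white fat. In these, floating adipocytes attach to the upper wall of a filled flask and lose their lipid. The iWAT_ASPC and eWAT_ASPC libraries came from the non-adipocyte cells of those depots, which the labels call SVF cells, plated and grown in culture. The labels name no transgene, and all cells had been detached with trypsin and sorted with the dead-cell dye 7-AAD. The sources used here do not state how many animals or cultures went into a library.

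EGF receptor ligands are made as membrane-bound precursors that proteases such as ADAM17 cut free, after which they act on the cell that made them or on its neighbours. Amphiregulin (*Areg*) and epiregulin (*Ereg*) bind the EGF receptor with low affinity, whereas transforming growth factor alpha (*Tgfa*), heparin-binding EGF-like growth factor (*Hbegf*) and betacellulin (*Btc*) bind it tightly. The occupied receptor (*Egfr*) pairs with itself or with *Erbb2*, which has no known ligand of its own, and signals through RAS and the kinases RAF, MEK and ERK. In fibroblasts and in fat precursors this pathway is known for driving growth and for restraining adipocyte differentiation.

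In mm10 with the GENCODE M21 annotation, *Ereg*, *Areg* and *Btc* are neighbours on chromosome 5. *Ereg* spans chr5:91074622-91093646 and *Areg* chr5:91139599-91148432, both on the plus strand and 46.0 kb apart. *Btc* lies 209 kb further on the minus strand, at chr5:91357261-91402994. *Egfr* spans chr11:16752203-16918158 and *Erbb2* chr11:98412470-98437716, and *Tgfa* spans chr6:86195223-86275719, all on the plus strand. A gene on the opposite strand overlaps *Ereg* (*Gm19610*), *Egfr* (*Egfros*) and *Erbb2* (*Mien1*), and whether reads were counted by strand is not given in the sources used here.

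The 250 bases before the start sites of *Areg* and *Btc* are shown, since these neighbours had the widest ranges of level among the 7 genes. The sequences are those of RefSeq on GRCm38.p6, where 5 of the 7 genes had an entry (*Areg*, *Tgfa*, *Btc*, *Egfr* and *Erbb2*). Capitals mark matches to any of the motifs searched on both strands. These were the cyclic AMP response element (CRE, TGACGTCA), the AP-1 site (TGANTCA), the TATA box (TATAAA) and a form of the NF-κB site (GGGANTTCC).
*Areg*, chr5:91139349-91139598, plus strand: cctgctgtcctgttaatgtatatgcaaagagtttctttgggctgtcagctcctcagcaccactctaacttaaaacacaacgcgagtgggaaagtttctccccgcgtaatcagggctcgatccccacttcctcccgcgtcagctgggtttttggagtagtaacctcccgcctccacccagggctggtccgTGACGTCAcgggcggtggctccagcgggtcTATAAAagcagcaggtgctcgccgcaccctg
*Btc*, chr5:91402995-91403244, minus strand: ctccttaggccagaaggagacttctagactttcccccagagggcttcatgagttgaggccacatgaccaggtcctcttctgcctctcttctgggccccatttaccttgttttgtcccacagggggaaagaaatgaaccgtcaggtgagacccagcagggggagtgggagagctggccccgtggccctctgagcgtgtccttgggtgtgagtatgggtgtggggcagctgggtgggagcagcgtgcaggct

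The *Areg* window held a CRE beginning at position -61 and a TATA box at -31, counted back from the start site. Of all 32851 promoter windows of this length, 1.55% held the CRE, 12.4% the TATA box, 6.75% the AP-1 letters and 1.43% the NF-κB letters. Among the 5 genes with an entry, *Areg* alone had a match.

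Cells were barcodes with 5000 to 75000 unique molecular identifiers (UMIs, each 1 captured RNA molecule), 200 to 7500 genes and under 10% mitochondrial UMIs. This left 7629 iWAT_DFAT, 6464 eWAT_DFAT, 7424 iWAT_ASPC and 6745 eWAT_ASPC cells, with a median depth of 22111 to 27617 UMIs and 183664704 to 199357348 UMIs per library. Between 13 and 20 cell barcodes were shared by any pair of libraries, under 0.3% of either. The labelled cell type was checked with 8 ASPC markers (*Pdgfra*, *Pdgfrb*, *Dcn*, *Lum*, *Col1a1*, *Col3a1*, *Ly6a* and *Thy1*), and 98.5%, 85.1%, 94.9% and 93.7% of the cells, in the order given, held at least 4 of them. The eWAT_DFAT library stood apart, with a summed level of these markers of 1508 counts per 1000000 UMIs (CPM) against 4159 to 5639 CPM in the others. The iWAT_ASPC files also name another Cell Ranger version in their headers (4) than the other files (7.1.0). Levels below are UMIs summed over the cells of a library and scaled to CPM, with exact 95% Poisson intervals. These intervals, the Clopper-Pearson intervals of shares and the conditional binomial intervals of ratios cover counting error only. With 1 library per condition the spread between cultures was not measured, and depot or culture cannot be told apart from the library.

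*Areg* was found mainly in the DFAT libraries. It stood at 5.22 CPM (95% interval 4.89 to 5.56) in iWAT_DFAT and 25.7 CPM (25.0 to 26.5) in eWAT_DFAT cells, and at 0.281 CPM (0.212 to 0.365) and 0.137 CPM (0.0901 to 0.199) in the iWAT and eWAT ASPCs. Whole libraries of ASPCs held only 56 and 27 *Areg* UMIs, against 958 and 4778 in the DFAT libraries. Droplets with 1 to 100 UMIs, which hold free RNA and no cell, had 3.73 CPM (2.46 to 5.42) of *Areg* in iWAT_DFAT, which overlapped the cells, and 17.4 CPM (14.5 to 20.7) in eWAT_DFAT. In the ASPC libraries they had 0.280 and 0.282 CPM, from 2 UMIs each. The *Areg* level of ASPCs was therefore not separated from that of free RNA. A like level does not by itself show that the UMIs of cells are free RNA, and their origin was not measured. In iWAT_ASPC 1672661 droplets with 1 to 100 UMIs held 7138868 UMIs, whereas cells had a median of 24930 UMIs each. Still, 2 cells in each ASPC library had 5 or more *Areg* UMIs, and held 23.2% of those of iWAT_ASPC and 37.0% of those of eWAT_ASPC. Within eWAT_DFAT, endothelial-marked cells had 3.95 CPM of *Areg* and the remaining cells 26.0 CPM. At an equal depth of 5000 UMIs per cell, an *Areg* UMI was found in 1.34% of iWAT_DFAT and 6.19% of eWAT_DFAT cells.

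*Ereg* was counted in all libraries and highest in the DFAT libraries. Its levels were 118 CPM (117 to 120) in iWAT_DFAT, 174 CPM (172 to 176) in eWAT_DFAT, 16.3 CPM (15.8 to 16.9) in iWAT_ASPC and 16.8 CPM (16.2 to 17.4) in eWAT_ASPC. The ASPC libraries overlapped within counting error, while both DFAT libraries lay above them. At equal depth 30.0% and 40.5% of the iWAT and eWAT DFAT cells had an *Ereg* UMI, and 6.51% and 6.97% of the ASPCs. Free RNA was close to the cells, from 118 CPM in iWAT_DFAT and 156 CPM in eWAT_DFAT to 13.3 and 14.2 CPM in the ASPC libraries. Its intervals overlapped those of the cells in every library but eWAT_DFAT, where free RNA had 147 to 165 CPM. In the eWAT_DFAT library 7.64% of cells with endothelial markers had an *Ereg* UMI at 5000 UMIs per cell, against 41.3% of the remaining cells. Median depths before thinning were 11794 UMIs in those endothelial-marked cells and 27425 UMIs in all cells of the library.

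*Hbegf*, whose product binds heparan sulphate, varied less. It had 45.0 CPM (44.1 to 46.0) in iWAT_DFAT, 69.5 CPM (68.3 to 70.7) in eWAT_DFAT, 29.5 CPM (28.7 to 30.2) in iWAT_ASPC and 22.0 CPM (21.4 to 22.7) in eWAT_ASPC cells. All 4 intervals were separate, with both DFAT libraries above both ASPC libraries.

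*Btc* was high in eWAT_DFAT alone. That library had 12.8 CPM (12.3 to 13.3), followed by 2.43 CPM (2.21 to 2.66) in iWAT_DFAT and 2.23 CPM (2.02 to 2.44) in iWAT_ASPC, which overlapped, and by 0.623 CPM (0.518 to 0.743) in eWAT_ASPC. Free RNA held 2.07, 10.5, 1.40 and 0.141 CPM of *Btc* in iWAT_DFAT, eWAT_DFAT, iWAT_ASPC and eWAT_ASPC, and its intervals overlapped those of the cells in all 4 libraries. *Tgfa* stayed below 2 CPM everywhere: 1.73 CPM (1.54 to 1.93) in iWAT_DFAT, 0.916 CPM (0.783 to 1.06) in eWAT_DFAT, 0.943 CPM (0.813 to 1.09) in iWAT_ASPC and 1.51 CPM (1.35 to 1.70) in eWAT_ASPC. The iWAT_DFAT and eWAT_ASPC levels of *Tgfa* overlapped, as did the iWAT_ASPC and eWAT_DFAT levels. In the DFAT libraries the free RNA droplets had 2.90 and 1.48 CPM of *Tgfa*, at least as much as the cells. The *Tgfa* level of these cells was thus not above that of free RNA, and how many of its UMIs came from free RNA was not measured.

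The receptor *Egfr* was detected at full depth in 83.8% to 95.9% of the cells of a library. Its level was 468 CPM (465 to 471) in iWAT_DFAT, 350 CPM (347 to 353) in eWAT_DFAT, 246 CPM (244 to 248) in eWAT_ASPC and 177 CPM (175 to 178) in iWAT_ASPC. At equal depth 77.6%, 62.0%, 58.6% and 48.2% of the cells in the same order had an *Egfr* UMI, and neighbours in this order differed by 1.34- to 1.42-fold. Free RNA held 371 CPM of *Egfr* in iWAT_DFAT, 315 CPM in eWAT_DFAT, 202 CPM in eWAT_ASPC and 135 CPM in iWAT_ASPC, below the cells in each library. At equal depth 12.5% of the endothelial-marked cells of eWAT_DFAT, 6.11% of those of eWAT_ASPC and 5.88% of those of iWAT_ASPC had an *Egfr* UMI. The co-receptor *Erbb2* was nearly even, at 8.90 CPM (8.47 to 9.34) in iWAT_DFAT, 7.34 CPM (6.97 to 7.73) in eWAT_ASPC, 7.03 CPM (6.67 to 7.41) in iWAT_ASPC and 5.99 CPM (5.64 to 6.35) in eWAT_DFAT. Only the ASPC libraries overlapped for *Erbb2*, and its highest and lowest levels were 1.48-fold apart. The *Erbb2* level of cells over that of free RNA was 1.11 in iWAT_DFAT, 0.925 in eWAT_DFAT, 0.897 in iWAT_ASPC and 1.02 in eWAT_ASPC, with free RNA intervals that overlapped those of the cells in every library.

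**Figure D1:**
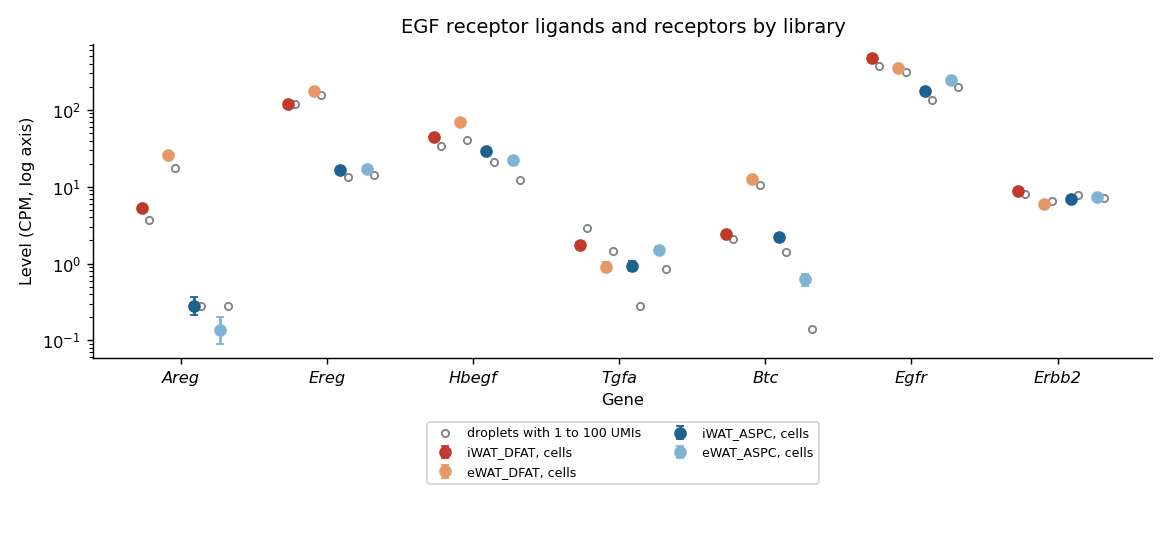
Level of each gene in CPM (log axis) in the cells of the 4 libraries (filled points, bars are 95% Poisson intervals for counting error) and in droplets with 1 to 100 UMIs of the same library (open grey points). *Areg* spans from 0.137 to 25.7 CPM over the libraries, whereas *Erbb2* stays between 5.99 and 8.90 CPM.

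DFAT cells were compared with ASPCs of the same depot to ask which parts of the pathway differ between cultures started from adipocytes and from stromal cells. In eWAT, 4 of the 6 genes at 5 CPM or more were over 2-fold higher in DFAT cells and none was over 2-fold lower, where 6.44% of the 10298 genes at that level were over 2-fold higher and 6.67% over 2-fold lower (13.1% either way). With the trimmed mean of M-values (TMM) scaling, 37.1% of all genes past 2-fold were higher in eWAT_DFAT, against 49.1% as scaled here, and the median of all genes moved from 0.07 to -0.10 on the log2 scale. The 4 genes were *Areg* with a log2 ratio of 7.56 (7.01 to 8.16, or 188-fold), *Btc* with 4.36 (4.10 to 4.63, 20.5-fold), *Ereg* with 3.37 (3.32 to 3.42, 10.3-fold) and *Hbegf* with 1.66 (1.61 to 1.71, 3.16-fold). Without the cells that held 4 or more of 8 mitosis markers the *Areg* ratio was 9.17, with 21 of its 27 UMIs in eWAT_ASPC in such cells. The ratios of *Areg* to ASPCs in either depot compare UMIs counted, since in ASPCs these were at the level of free RNA. For *Ereg* the free RNA intervals overlapped those of the cells in every library but eWAT_DFAT, and for *Btc* in all 4. The minimum of 5 CPM was asked of the higher library only, so *Areg* and *Btc* entered the eWAT count through eWAT_DFAT alone. *Egfr* was 1.42-fold higher in eWAT_DFAT than in eWAT_ASPC, with a log2 ratio of 0.51 (0.49 to 0.52). *Erbb2* had a log2 ratio of -0.29 (-0.41 to -0.18), and *Tgfa*, below 5 CPM in both, one of -0.72 (a ratio of 0.605, 0.498 to 0.733), which turned to 0.47 without cells marked as other types.

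In iWAT, 3 of the 5 genes at 5 CPM or more were over 2-fold higher in DFAT cells than in ASPCs and none was over 2-fold lower, beside 9.91% and 5.18% of the 10426 genes at that level (15.1% either way). *Areg* had a log2 ratio of 4.21 (3.83 to 4.63, 18.6-fold), *Ereg* of 2.86 (2.80 to 2.91, 7.25-fold) and *Egfr* of 1.41 (1.39 to 1.42, 2.65-fold). The *Areg* ratio was 5.00 without the mitosis-marked cells. *Areg* entered this count through iWAT_DFAT alone, where its interval of 4.89 to 5.56 CPM held the minimum of 5 CPM. *Hbegf* had a log2 ratio of 0.61 (0.56 to 0.66) and *Erbb2* of 0.34 (0.24 to 0.44), both within 2-fold. *Btc* and *Tgfa* were below 5 CPM in both libraries, with log2 ratios of 0.12 (-0.07 to 0.32) and 0.87 (0.61 to 1.14). These moved to 0.94 and 1.80 without cells marked as other types and to -0.50 and 0.22 with each cell weighted equally. *Areg* and *Ereg* were over 2-fold higher in DFAT cells of either depot, whereas *Hbegf* and *Btc* passed 2-fold in eWAT and *Egfr* in iWAT.

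The depots were compared within each culture. Between the DFAT libraries, 2 of 6 genes at 5 CPM or more were over 2-fold higher in eWAT_DFAT, and none in iWAT_DFAT, beside 3.95% and 8.29% of 10384 genes (12.2% either way). These were *Areg*, with a log2 ratio of iWAT over eWAT of -2.30 (-2.40 to -2.20, 4.94-fold higher in eWAT), and *Btc*, with -2.40 (-2.55 to -2.25, 5.26-fold). *Btc* reached the minimum in eWAT_DFAT alone. The remaining ligands at this level, *Ereg* (-0.55) and *Hbegf* (-0.63), were also higher in eWAT_DFAT but within 2-fold. Both receptors were higher in iWAT_DFAT, *Egfr* by a log2 ratio of 0.42 (0.41 to 0.44) and *Erbb2* by 0.57 (0.46 to 0.68). *Tgfa*, below 5 CPM, had a log2 ratio of 0.91 (0.64 to 1.19).

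Between the ASPC libraries, 4 of the 7 genes reached 5 CPM and none was past 2-fold in either direction, beside 2.94% of 10135 genes over 2-fold higher in iWAT_ASPC and 3.94% in eWAT_ASPC (6.88% either way). *Ereg* had a log2 ratio of iWAT over eWAT of -0.04 (-0.11 to 0.03), *Hbegf* of 0.42 (0.36 to 0.48), *Egfr* of -0.48 (-0.50 to -0.46) and *Erbb2* of -0.06 (-0.17 to 0.05). *Btc* was below 5 CPM, with 444 and 123 UMIs and a log2 ratio of 1.84 (1.55 to 2.14). The depot ratio of DFAT cells less that of ASPCs was -4.23 (-4.56 to -3.91) for *Btc*, -3.34 (-4.01 to -2.67) for *Areg*, -1.05 (-1.12 to -0.98) for *Hbegf* and 0.90 (0.87 to 0.92) for *Egfr*, on the log2 scale and with counting error only. The *Areg* value rests on ASPC levels that were not separated from that of free RNA, and the *Btc* ratios on levels whose intervals overlapped those of free RNA. For *Btc* the depot ratios were -2.59 in DFAT cells and 0.81 in ASPCs without cells marked as other types, and glial-marked cells held 224 of the 444 *Btc* UMIs of iWAT_ASPC. The comparisons share libraries, and their values are therefore not independent of each other.

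**Figure D2:**
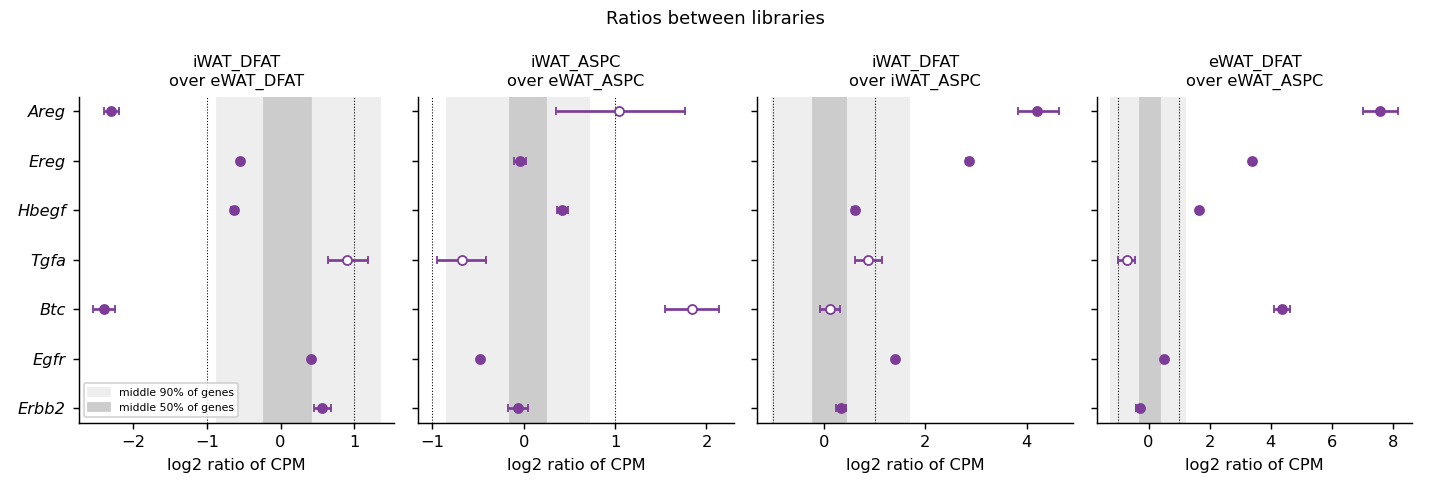
log2 ratio of CPM in the 4 comparisons, each on its own axis, with 95% intervals for counting error (filled points, genes at 5 CPM or more in the higher library; open points, below it). Grey bands hold the middle 50% and 90% of all genes at 5 CPM or more, and dotted lines mark 2-fold. *Areg* and *Ereg* lie right of the bands in both DFAT over ASPC panels, and *Areg* and *Btc* lie left of them between the DFAT libraries.

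Counting of reads in introns is stated for the study as a whole, while whether it was done alike in iWAT_ASPC, whose headers name another Cell Ranger version, is not given in the sources used here. Long genes as a class were shifted. Genes spanning over 100 kb had a median log2 ratio of 0.29 between the DFAT libraries and 0.31 between iWAT_DFAT and iWAT_ASPC, against -0.04 and -0.07 for genes of up to 10 kb. In the other comparisons the medians over 100 kb were 0.13 between the ASPC libraries and 0.15 between the eWAT libraries. *Egfr* spans 166 kb and *Areg* 8.83 kb. The *Egfr* ratio of 1.41 in iWAT was above the median of the long genes, and that of 0.42 between the DFAT libraries was close to it. The part of gene span and of the Cell Ranger version in these ratios was not tested.

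How the UMIs were spread over cells differed between the genes. With each cell thinned to 5000 UMIs, the variance over the mean, which is 1 for counts that scatter at random, was 3.93 and 3.48 for *Areg* in the iWAT and eWAT DFAT cells. For *Ereg* it was 2.42 and 2.71 in these libraries but 1.31 and 1.23 in the ASPCs. At equal relative spread this value rises with the mean. The *Ereg* mean was 0.588 and 0.811 UMIs per cell in DFAT cells and 0.0779 and 0.0811 in ASPCs, so no difference in spread is read from it. *Erbb2* lay between 0.989 and 1.05 in all libraries, and *Egfr* between 1.87 and 2.87.

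*Areg* was carried by few cells. At full depth 55 iWAT_DFAT cells (0.721%) with 5 or more *Areg* UMIs held 65.7% of all *Areg* UMIs of that library, and 276 eWAT_DFAT cells (4.27%) held 75.4%. The highest cell had 33 *Areg* UMIs in iWAT_DFAT and 108 in eWAT_DFAT. The more abundant *Ereg* reached 5 UMIs in 21.6% and 35.0% of the DFAT cells, which held 76.9% and 83.0% of its UMIs. *Egfr* reached 5 UMIs in 71.2% and 59.5% of the DFAT cells.

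Some pairs of ligand transcripts met in the same cells more often than independence gives. In iWAT_DFAT 50 cells had a UMI of both *Areg* and *Ereg* where 30.6 would be met if they were independent, and in eWAT_DFAT 232 where 162 would be. *Areg* and *Btc* met in 61 eWAT_DFAT cells, 3.27 times the 18.6 of independence. Other pairs varied with the library. *Hbegf* and *Btc* met 2.08 times as often as independence gives in iWAT_DFAT, 3.59 times in iWAT_ASPC and 0.916 times in eWAT_DFAT. Of the 119 glial-marked cells of iWAT_ASPC, 44.5% had a *Btc* UMI and 62.2% an *Hbegf* UMI, against 0.630% and 10.7% of the rest. The part of glial-marked cells in this pair was not tested. For *Ereg* and *Btc* the ratio was 0.873 in iWAT_DFAT and 1.25 in eWAT_DFAT, and for *Areg* and *Hbegf* 1.39 and 1.06. Cells with an *Areg* UMI had 259 CPM of *Ereg* against 116 CPM in the other cells of iWAT_DFAT, and 296 against 153 CPM in eWAT_DFAT. *Btc* stood at 45.5 CPM in the eWAT_DFAT cells with an *Areg* UMI and at 9.10 CPM in those without. The Pearson r between *Areg* and *Ereg* over cells was still low, at 0.07 over 7629 iWAT_DFAT cells and 0.12 over 6464 eWAT_DFAT cells, and 0.03 and 0.07 when cells were thinned to 2500 UMIs. *Egfr* was about the same in cells with and without an *Areg* UMI, at 498 and 482 CPM in iWAT_DFAT and 358 and 328 CPM in eWAT_DFAT.

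A few genes of the pathway lists differed in the cells with an *Areg* UMI (102 iWAT_DFAT and 400 eWAT_DFAT cells). Over genes at 50 CPM or more in either set, a minimum set after the values were seen, 1.69% were over 2-fold higher in the *Areg* cells of iWAT_DFAT and 0.982% over 2-fold lower. In eWAT_DFAT these shares were 0.931% and 0.690%. Of the ERK and AP-1 response genes at this level 3 of 18 in iWAT_DFAT and 2 of 13 in eWAT_DFAT were over 2-fold higher and none lower, with medians of 0.22 and 0.49 on the log2 scale. ERK feedback genes gave 2 of 5 and 0 of 5 higher, and NF-κB response genes 1 higher and 1 lower of 11 in iWAT_DFAT and of 8 in eWAT_DFAT. The cytokine gene *Il11* was 78.4 CPM in cells with and 11.5 CPM in cells without an *Areg* UMI of iWAT_DFAT, and 170 and 42.8 CPM in eWAT_DFAT. *Ptgs2*, the inducible cyclooxygenase of prostaglandin synthesis, was 992 and 538 CPM in iWAT_DFAT and 654 and 259 CPM in eWAT_DFAT. The neutrophil chemokine gene *Cxcl2* was also higher in *Areg* cells, with 339 against 115 CPM and 272 against 132 CPM. *Saa3*, which encodes an acute phase serum amyloid A protein, was lower, with 1490 against 3961 CPM in iWAT_DFAT and 460 against 1054 CPM in eWAT_DFAT. *Dusp5*, a phosphatase that acts on ERK in the nucleus, had 94.1 against 34.9 CPM in iWAT_DFAT and 73.5 against 43.7 CPM in eWAT_DFAT. *Fos* went opposite ways, at 375 against 548 CPM in iWAT_DFAT and 102 against 71.2 CPM in eWAT_DFAT. Of the 10 genes on the path from receptor to ERK at this level in each library, none was past 2-fold. Some cell type markers moved with the split as well. *Pdgfra* and *Pdgfrb* did not in eWAT_DFAT, at 97.5 against 93.6 CPM and 84.5 against 84.3 CPM. In iWAT_DFAT *Pdgfra* was lower in *Areg* cells (169 against 268 CPM) and *Pdgfrb* was not separated (log2 ratio -0.38, -0.88 to 0.07). *Col1a1* was lower in *Areg* cells, with 1051 against 1648 CPM in iWAT_DFAT and 368 against 723 CPM in eWAT_DFAT, as was *Col3a1*, with 708 against 1320 CPM and 232 against 373 CPM. In eWAT_DFAT all 8 mitosis markers were at 0.694 to 0.840 times the level of the other cells, and the endothelial marker *Emcn* had a log2 ratio of -5.77 (-11.08 to -3.29). The part of these markers in the differences was not tested.

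**Figure D3:**
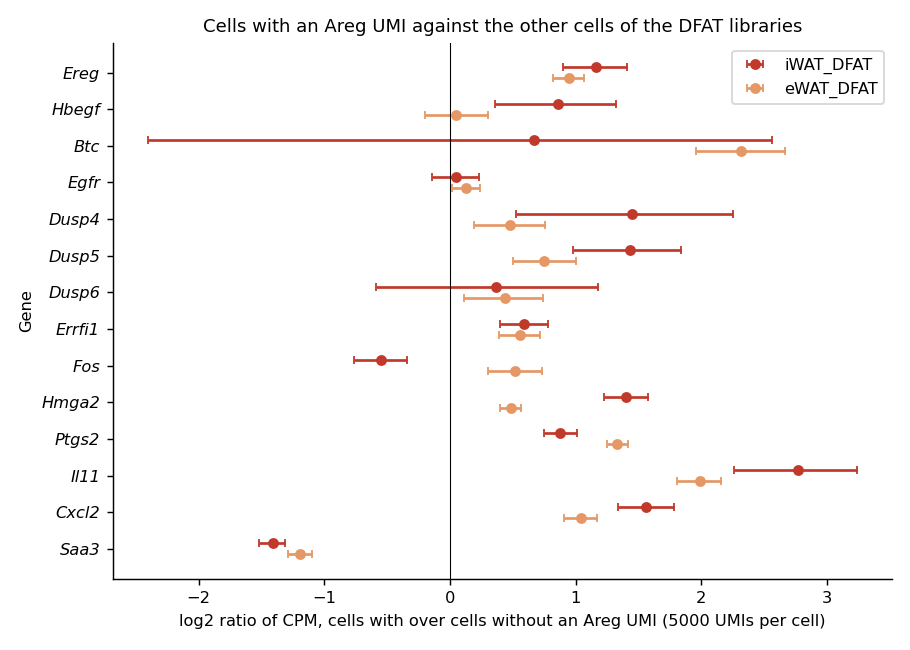
log2 ratio of CPM in cells with an *Areg* UMI over cells without, in the DFAT libraries at 5000 UMIs per cell; bars are 95% intervals for counting error and the vertical line marks no difference. *Ereg*, *Ptgs2*, *Il11* and *Cxcl2* lie right of the line in both libraries and *Saa3* lies left of it.

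Other cell types in the cultures carried some of the ligands. Cells were marked as another type when they held UMIs of at least 4 of its 8 markers (6 for glial cells), and doublets were not taken out for this count. Endothelial-marked cells (*Pecam1*, *Cdh5*, *Kdr*, *Tek*, *Emcn*, *Cldn5*, *Tie1*, *Erg*) numbered 20, 144, 51 and 131 in iWAT_DFAT, eWAT_DFAT, iWAT_ASPC and eWAT_ASPC. Their *Hbegf* level was 178, 257, 382 and 277 CPM, against 44.7, 67.2, 27.7 and 18.9 CPM in the remaining cells. *Tgfa* stood at 76.0 CPM in the endothelial-marked cells of iWAT_ASPC and 48.1 CPM in those of eWAT_ASPC, against 0.560 and 0.953 CPM in the rest. In the DFAT libraries the endothelial-marked cells had 4.80 CPM of *Tgfa* from 2 UMIs in iWAT and 1.76 CPM from 4 UMIs in eWAT, against 1.72 and 0.906 CPM in the rest. In the ASPC libraries these cells held 77 of the 188 *Tgfa* UMIs of iWAT_ASPC and 113 of the 299 of eWAT_ASPC. Their *Egfr* was low, at 16.8 and 33.2 CPM in the ASPC libraries against 177 and 249 CPM in the rest, and at 173 and 77.7 CPM in the iWAT and eWAT DFAT libraries against 469 and 353 CPM.

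Glial-marked cells, which held at least 4 of 6 markers (*Sox10*, *Cdh19*, *Kcna1*, *Foxd3*, *Gfra3*, *Mbp*), were found almost only in the iWAT libraries, with 6 cells in iWAT_DFAT and 119 in iWAT_ASPC, against 1 in eWAT_DFAT and 0 in eWAT_ASPC. Their *Btc* level was 478 CPM (357 to 627) in iWAT_DFAT and 122 CPM (106 to 139) in iWAT_ASPC, and 2.15 and 1.11 CPM in the remaining cells. They held 52 of the 446 *Btc* UMIs of iWAT_DFAT and 224 of the 444 of iWAT_ASPC. With 3 or more markers, 15 cells of iWAT_DFAT held 92 of these UMIs and 139 cells of iWAT_ASPC held 255. Without cells marked as any other type, *Btc* was 2.15, 13.0, 1.12 and 0.639 CPM in the 4 libraries in the order above. The log2 ratio of iWAT_ASPC over eWAT_ASPC was then 0.81 in place of 1.84, while that between the DFAT libraries was -2.59 in place of -2.40. *Hbegf* was 442 CPM in the glial-marked cells of iWAT_DFAT and 225 CPM in those of iWAT_ASPC, against 44.8 and 27.6 CPM in the rest.

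*Tgfa* also moved when cells marked as any other type were left out. It was then 1.71, 0.878, 0.491 and 0.633 CPM, and the log2 ratio of DFAT cells over ASPCs in eWAT was 0.47 in place of -0.72. Mesothelial-marked cells numbered 497 in eWAT_ASPC and 56 in eWAT_DFAT and none in the iWAT libraries. In eWAT_ASPC they had 5.61 CPM of *Tgfa* against 1.23 CPM in the rest, and 300 CPM of *Egfr* against 242 CPM. Pericyte-marked cells numbered 6, 73, 23 and 13 in the 4 libraries, immune-marked cells at most 25 and epithelial-marked cells at most 2. With 3 or more markers pericyte-marked cells numbered 62, 148, 144 and 95, and epithelial-marked cells at most 11. *Areg*, *Ereg* and *Egfr* hardly changed without the marked cells: *Areg* was 5.25 and 26.1 CPM and *Ereg* 119 and 180 CPM in the iWAT and eWAT DFAT cells.

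Adipocyte markers were followed in the DFAT libraries, whose cultures were started from adipocytes. Their 8-marker sum was 26.3 CPM in iWAT_DFAT and 106 CPM in eWAT_DFAT, against 0.582 and 1.67 CPM in the ASPCs, with *Lep* at 0 in every library. The DFAT library with more *Areg* thus also had the higher adipocyte marker sum. In the 119 adipocyte-marked cells of eWAT_DFAT *Areg* was 39.7 CPM (32.4 to 48.0) against 25.5 CPM in the rest, although at equal depth 3.36% of them had an *Areg* UMI against 6.24% of the rest. With 3 or more markers, in 194 cells, *Areg* was 85.2 CPM against 24.1 CPM, and the shares were 8.25% and 6.12%. In the 119 cells *Ereg* was 49.5 against 175 CPM, *Hbegf* 14.7 against 70.3 CPM and *Egfr* 162 against 353 CPM. The 18 such cells of iWAT_DFAT had no *Areg* UMI, where 3 counts would be 7.02 CPM. In eWAT_DFAT the cells with an *Areg* UMI held less of 4 of the 8 adipocyte genes than those without, with a log2 ratio of -2.97 (-3.92 to -2.16) for *Car3*, 2.00 against 21.1 CPM of *Adipoq*, 2.50 against 10.5 CPM of *Cidec* and no UMI of *Cfd* against 43.5 CPM. *Plin1*, which coats lipid droplets, went the other way, with 52.0 against 32.5 CPM (log2 ratio 0.68, 0.37 to 0.97), and *Retn* was not separated (-0.39, -1.10 to 0.24). In iWAT_DFAT *Plin1* was lower in the *Areg* cells, with 3.92 against 16.4 CPM from 2 UMIs in those cells (log2 ratio -2.07, -5.11 to -0.21).

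Cells that held 4 or more of 8 mitosis markers made up 44.2%, 51.7%, 46.5% and 35.7% of the libraries, in the order above. In the DFAT libraries these had less *Ereg* (97.1 against 142 CPM in iWAT and 151 against 204 CPM in eWAT) and less *Egfr* (388 against 556 CPM and 318 against 393 CPM). At equal depth the shares of cells with a UMI differed in iWAT_DFAT, with 27.2% against 32.2% for *Ereg* and 74.0% against 80.5% for *Egfr*, but hardly in eWAT_DFAT, with 40.4% against 40.7% and 62.7% against 61.2%, so that no order is read there. The ASPC libraries showed smaller gaps for *Egfr*, with 171 against 183 CPM and 236 against 253 CPM, and their shares went the other way, with 48.8% against 47.6% and 59.3% against 58.2%. *Erbb2* differed by at most 0.28 on the log2 scale between mitosis-marked and remaining cells in any library.

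**Figure D4:**
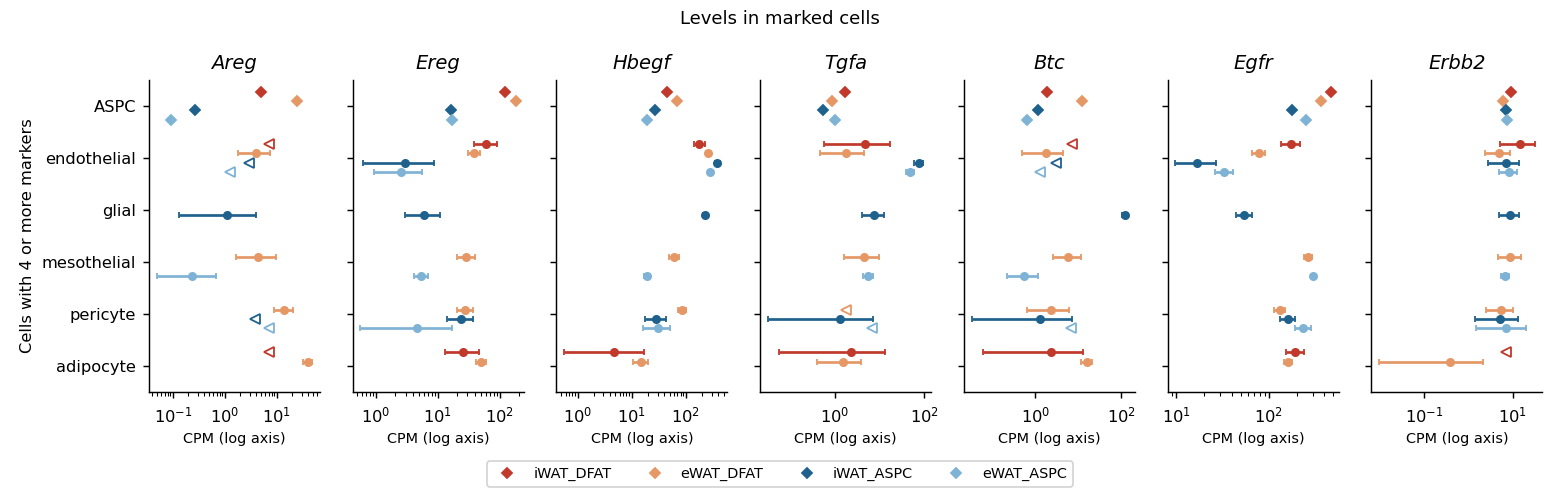
Level of each gene in CPM (log axis, 1 panel per gene) in cells that hold 4 or more of the 8 markers (6 for glial cells) of a cell type, for groups of at least 10 cells; colours are libraries, diamonds are ASPC-marked cells, bars are 95% Poisson intervals, and open triangles give the level of 3 counts where no UMI was found. *Btc* is highest in glial-marked cells of iWAT_ASPC, and *Tgfa* in endothelial-marked cells of the ASPC libraries.

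Among 10747 genes, those nearest to each member but *Tgfa*, which was under 5 CPM, by Euclidean distance of centred log2(CPM + 1) over the 4 libraries were named as a description, with 4 points per gene. For *Areg* these were *Car3*, *Cfd* and *Il1a*, the first with 4.06, 29.7, 0.0301 and 0.0101 CPM in iWAT_DFAT, eWAT_DFAT, iWAT_ASPC and eWAT_ASPC. *Car3* and *Cfd* are genes of mature adipocytes, and *Il1a* encodes a proinflammatory cytokine. *Ereg* was nearest to *Abcc4*, a transporter of prostaglandins and cyclic nucleotides, *Gsap* and *Tfec*. *Hbegf* was nearest to *Dcbld1*, *Zfp365* and *Gm19610*, the gene that overlaps *Ereg* on the other strand, which had 5.39, 7.52, 3.22 and 2.07 CPM. *Btc* went with *Prkg2*, *Zfp804a* and *Rgs17*, *Egfr* with *Mndal*, *Rhobtb1* and *Trim8*, and *Erbb2* with *Golga5*, *Rgl1* and *Med25*.

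Over cells within libraries, the nearest genes were taken by the mean Pearson r in the 4 libraries. Only the 7067 genes with a UMI in at least 5% of the thinned cells of every library were compared. *Car3*, *Cfd* and *Il1a*, nearly absent from ASPCs, could therefore not enter. The nearest were *Gclc*, *Spp1* and *Ptgs2* for *Areg* (mean r 0.080, 0.079 and 0.074), and *Ptgs2*, *Csf1* and *Inhba* for *Ereg* (0.137, 0.114 and 0.105). For *Areg* the r was 0.135, 0.076 and 0.090 over iWAT_DFAT cells and 0.157, 0.168 and 0.192 over eWAT_DFAT cells. Over ASPCs it was -0.011 to 0.058, with an *Areg* UMI in only 11 iWAT and 4 eWAT cells. The r of *Ereg* with *Ptgs2* was 0.291 over eWAT_DFAT cells and 0.153 over iWAT_DFAT cells, against 0.060 and 0.045 over iWAT and eWAT ASPCs. *Egfr* went with *Slit3*, *Malat1* and *Rbms3* (0.339, 0.290 and 0.274) in all 4 libraries. *Btc* went with *Tenm3*, *Col18a1* and *Uchl1*, for which r was 0.438, 0.502 and 0.364 over iWAT_ASPC cells but 0.021, -0.004 and 0.002 over eWAT_DFAT cells. Over iWAT_DFAT cells it was 0.307, 0.215 and 0.192, and over eWAT_ASPC cells -0.003, -0.012 and -0.013. Glial-marked cells held 224 of the 444 *Btc* UMIs of iWAT_ASPC, and their part in these r was not tested. *Hbegf* went with *Col18a1*, *Lrrc8c* and *Tm4sf1*, and no gene had a mean r above 0.028 with *Erbb2*. All genes of a cell share its library and its depth, which thinning sets equal.

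The other genes of the pathway were read in lists that had been written with earlier results known. Of the other 6 ErbB ligands only *Nrg1*, a neuregulin that binds *Erbb3* and *Erbb4*, reached 5 CPM, at 50.8, 21.6, 30.3 and 11.8 CPM in iWAT_DFAT, eWAT_DFAT, iWAT_ASPC and eWAT_ASPC. It was over 2-fold higher in iWAT in both cultures, while *Erbb3* and *Erbb4* were at 1.13 CPM or less everywhere. The sheddase gene *Adam17* was highest in iWAT_DFAT, at 63.6 CPM against 32.1, 24.3 and 20.6 CPM. *Rhbdf2*, which guides the maturation of ADAM17, was 7.61 and 9.22 CPM in the DFAT libraries and 2.49 and 2.73 CPM in the ASPC libraries. The related *Rhbdf1* went the other way, at 12.4 and 9.34 CPM in DFAT cells and 18.4 and 19.6 CPM in ASPCs.

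None of the 18 genes on the path from receptor to ERK was past 2-fold in any of the 4 comparisons, where 6.88% to 15.1% of all genes were, with list medians of -0.11 to 0.05 on the log2 scale beside medians over all genes of 0.05 to 0.09. Some of the 10 genes that restrain the receptor were past 2-fold. In iWAT 3 of 10 were over 2-fold higher in DFAT cells, beside 9.91% of all genes: *Errfi1* (log2 ratio 2.54), whose product MIG6 blocks the receptor kinase, the ubiquitin ligase gene *Cblb* (2.17) and *Lrig1* (1.33). In eWAT *Lrig1* (2.04) and *Cblb* (1.12) were over 2-fold higher, beside 6.44% of all genes, while *Errfi1* was at 0.20. The list medians were 0.83 and 0.33. Between the DFAT libraries 2 of 10 were over 2-fold higher in iWAT_DFAT, *Errfi1* (1.48) and *Cblb* (1.05), beside 8.29% of all genes. None was over 2-fold higher in eWAT_DFAT, beside 3.95%. Between the ASPC libraries none of the 10 was past 2-fold in either direction, beside 6.88% of all genes. Whether these small counts exceed the shares of all genes was not tested.

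Feedback genes of ERK differed in both directions. The phosphatase genes *Dusp5* and *Dusp6* were over 2-fold higher in DFAT cells of either depot, with log2 ratios of 2.12 and 1.17 in iWAT and 1.69 and 1.53 in eWAT. *Dusp4* was higher in eWAT_DFAT (2.22) but not in iWAT_DFAT (-0.19). *Spry1*, a Sprouty inhibitor of receptor signalling, was lower in DFAT cells of both depots (-2.89 and -1.98), whereas *Spry2* was over 2-fold higher in iWAT (1.70) and *Spry4* in eWAT (1.47). In all, 3 of 9 feedback genes were over 2-fold higher and 1 lower in iWAT_DFAT, and 5 of 10 higher and 1 lower in eWAT_DFAT, beside 9.91% and 5.18% of all genes in iWAT and 6.44% and 6.67% in eWAT.

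Of the genes that ERK and AP-1 induce, 15 of 21 were over 2-fold higher and 1 lower in iWAT_DFAT than in iWAT_ASPC, with a median log2 ratio of 2.01 and beside the same shares of all genes. In eWAT 10 of 21 were higher and 1 was lower in DFAT cells, with a median of 0.89. *Ptgs2* had 550, 302, 58.0 and 32.0 CPM over the libraries, and *Il11* 14.3, 49.5, 3.59 and 3.07 CPM. *Egr3*, an immediate early gene, was 95.6 CPM in iWAT_DFAT against 14.4, 3.69 and 3.93 CPM in the others. *Fos* was highest in iWAT_DFAT (493 CPM) and lowest in eWAT_DFAT (58.4 CPM), with 114 and 204 CPM in the ASPCs, and so did not follow *Areg*. Between the DFAT libraries 10 of the 21 were over 2-fold higher in iWAT_DFAT and 3 in eWAT_DFAT, and of the ERK feedback genes 0 and 3 of 10, beside 8.29% and 3.95% of all genes. Among NF-κB response genes all 15 were over 2-fold higher in iWAT_DFAT than in iWAT_ASPC, with a median of 3.39 and beside 9.91% of all genes, and 11 of 15 in eWAT_DFAT than in eWAT_ASPC, with a median of 1.73 and beside 6.44%. Between the DFAT libraries 8 of these 15 were over 2-fold higher in iWAT_DFAT and none in eWAT_DFAT.

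**Figure D5:**
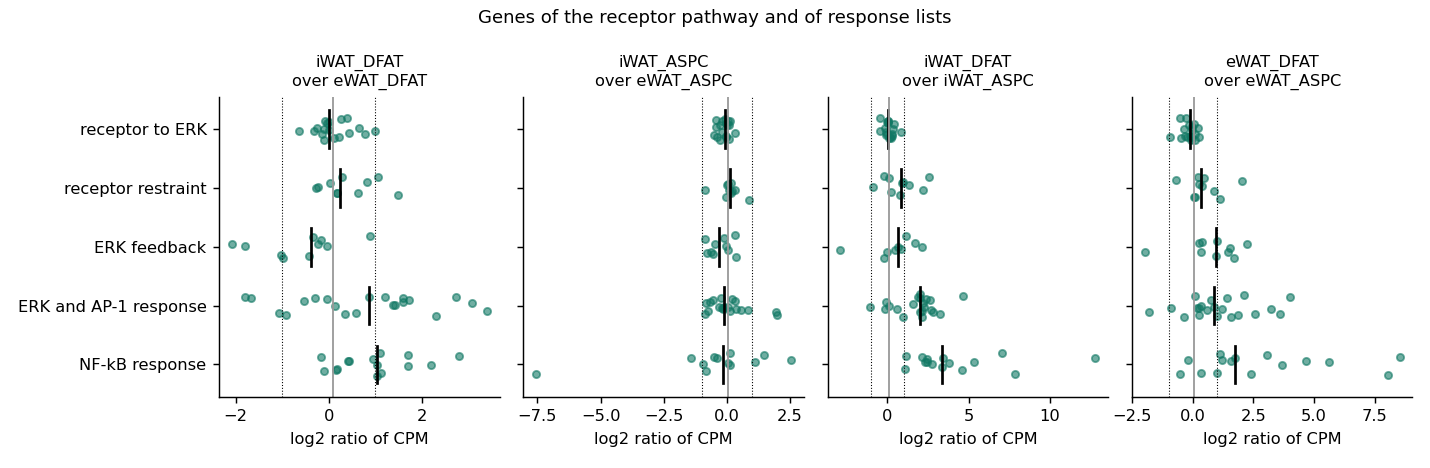
log2 ratio of CPM of the genes at 5 CPM or more in 5 lists and 4 comparisons, each comparison on its own axis; points are genes, black bars list medians, the grey line is the median of all genes and dotted lines mark 2-fold. All 18 genes from receptor to ERK lie between the dotted lines, and all 15 NF-κB response genes lie right of them for iWAT_DFAT over iWAT_ASPC.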

How the data were processed

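The deposited files hold raw UMI counts per gene and barcode, made by the authors with Cell Ranger (7.0.0 in the Methods; 7.1.0 and 4 in the file headers) on mm10, with introns included per the Methods; whether this holds for the library with header version 4 is not given in the sources used here. CellBender, cell filtering and DoubletFinder are stated for the later steps and are not part of the deposited counts. Their stated lower limit of 500 UMIs was raised here to 5000, the depth to which cells were thinned, so that none of the cells kept was lost in thinning.

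Counts were summed over the cells of a library and scaled to 1000000 UMIs. Genes were called past 2-fold at 5 CPM or more in the higher library; no test was made with 1 library per condition. The members and all lists were chosen with earlier results of these data known. Genes are named if they are members, among the 3 per direction of a list with the largest ratio past 2-fold, or the 3 nearest to a member. *Erbb3*, *Erbb4* and the markers of *Areg* cells were named after their values were seen. The glial list was shortened to 6 markers after the values were seen, and the others are not reported here. Intervals and thinning were tested on simulated Poisson counts. These lack the clumping of UMIs in few cells, which the intervals do not cover. Alternatives changed cell limits, doublets (Scrublet in scanpy 1.11.5), other cell types, mitotic cells, scaling (median of ratios; TMM, edgeR 4.0.16), free RNA, weighting, the minimum, the fold and the number of markers (3). Python 3.11.15, numpy 2.4.6, scipy 1.17.1 and pandas 2.3.3 were used.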

Additional observations from a re-analysis of the deposited data

Results flagged for a closer look

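The direction of a ratio differed between groups for several genes, which was not tested with 1 library per condition. The log2 ratio of iWAT over eWAT was -2.30 in DFAT cells and 1.04 in ASPCs for *Areg*, -0.63 and 0.42 for *Hbegf*, -2.40 and 1.84 for *Btc*, 0.91 and -0.68 for *Tgfa*, and 0.42 and -0.48 for *Egfr*. The log2 ratio of DFAT cells over ASPCs was 0.87 in iWAT and -0.72 in eWAT for *Tgfa*, and 0.34 and -0.29 for *Erbb2*. Without cells marked as other types the *Tgfa* values were 1.80 and 0.47, so that the directions no longer differed. The 1.04 of *Areg* is a ratio of 56 to 27 UMIs at the level of free RNA and was 0.51 with no upper limit on genes per cell, so that no direction is read from it. *Tgfa* was below 5 CPM in all libraries, and *Areg* and *Btc* were below it in both ASPC libraries.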

How the results depend on the processing

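No paired analysis was possible because each condition has 1 library, and for the same reason no replicate could be left out. The counts of members past 2-fold were also taken under 15 other settings. In iWAT_ASPC over eWAT_ASPC the count higher in iWAT_ASPC went from 0 to 1 with a minimum of 1 CPM (*Btc*) and to 2 with no minimum (*Areg* and *Btc*). The other counts stayed within 1.5 times of those given, a range that lets small counts change by 1 gene. At 3-fold *Egfr* in iWAT (2.65-fold) was no longer past the fold. At 1.5-fold *Hbegf* also passed between the DFAT libraries (1.54-fold) and in iWAT (1.53-fold). No ratio past 2-fold changed direction under the 11 settings that alter levels. With free RNA subtracted at 5% of the UMIs, 28 of the 28 ratios of members stayed within their intervals, and 27 did at 10%. Leaving out mitosis-marked cells moved *Areg* from 1.04 to 1.80 and *Btc* from 1.84 to 2.52 in iWAT_ASPC over eWAT_ASPC, on the log2 scale. Leaving out cells marked as another type moved *Tgfa* from 0.87 to 1.80 and *Btc* from 0.12 to 0.94 in iWAT_DFAT over iWAT_ASPC. Weighting each cell equally gave 0.22 and -0.50 there, -1.42 for *Tgfa* in eWAT and 2.75 for *Btc* between the ASPC libraries. The causes were not tested. Scrublet called at most 3 cells in a library, which is too few to have worked, so the 334 to 466 cells with the highest scores were left out instead. At these depths *Areg* in ASPCs rested on 56 and 27 UMIs and *Tgfa* on 170 to 317 UMIs per library.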
